A study of Mus musculus with 35 samples.

Results

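Tbx6, Coq8a, Klhl24, Bend4 and Gm5538 were the 5 genes with the largest rises from pH 7.4 to pH 6.6 among well-expressed genes of cytotoxic T lymphocytes (CTLs) kept with IL-2. They were selected on exactly that difference, so their rise in the 10 libraries at pH 6.6 and pH 7.4 with IL-2 is a description here, and tests are given only for comparisons among the other 25 libraries. All 5 passed the filter on low counts, as 5 of 13819 genes tested and of 48709 genes in the tables. Without IL-2, the same acidification left them in different places: Bend4 rose 8.83-fold, Coq8a 2.27-fold and Klhl24 2-fold, Tbx6 rose by a margin that depended on the processing, and Gm5538 fell.

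The cells were mouse CD8+ T cells of the OT-I line, which carries a transgenic T cell receptor against an ovalbumin peptide. They had been primed with antibodies to CD3 and CD28 and expanded in IL-2 before the experiment, which makes them cultured effector cells and not cells taken from a tumour. RNA was sequenced at 0 h and after 24 h in medium of pH 7.4, of pH 7 or of pH 6.6, to which either no IL-2 or 200 IU/mL murine IL-2 had been added, and each of the 7 groups had 5 biological replicates. Acid was set with HCl, and dead cells were removed on Ficoll before extraction. The 0 h cells carry the history of expansion in IL-2, which all 7 groups share.

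The 5 genes have unrelated roles. Tbx6 encodes a T-box transcription factor known from the presomitic mesoderm of the embryo, where it directs the mesodermal fate. Coq8a encodes an atypical kinase-like protein of mitochondria that is needed for the synthesis of coenzyme Q, the electron carrier of the respiratory chain. Klhl24 encodes a BTB-kelch protein, one of the adaptors that bring substrates to ubiquitin ligases built on CUL3. Bend4 encodes a protein with a BEN domain, a module that binds DNA or proteins in chromatin regulators. Gm5538, named Aadacl2fm2 by RefSeq, belongs to the arylacetamide deacetylase-like family of predicted esterases. IL-2 drives growth and division of CTLs through JAK-STAT and PI3K-AKT signalling, and AKT keeps FoxO transcription factors out of the nucleus.

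In the GENCODE M21 annotation of GRCm38, Tbx6 (ENSMUSG00000030699) lies at chr7:126781483-126785560 on the plus strand. Coq8a (ENSMUSG00000026489) spans chr1:180165238-180199602 on the minus strand, and Klhl24 (ENSMUSG00000062901) spans chr16:20097542-20129221 on the plus strand. Bend4 (ENSMUSG00000092060) occupies chr5:67392147-67428310 on the minus strand, and Gm5538 (ENSMUSG00000090527) chr3:59729790-59752333 on the plus strand. All 5 are protein-coding, and counts were made over exons. Of the exon bases of Coq8a, 6.9% overlap Cdc42bpa on the other strand, and 4.4% of those of Bend4 overlap Gm26756 and Gm42632. Whether the counting used strand is not given in the sources used here, so a part of the reads on these stretches may belong to the partner. Gm5538 has close relatives in its own cluster, and 87.9% of its windows of 50 bases occurred in no other gene. The 4 genes that share its other windows, 4930449A18Rik, C130079G13Rik, Gm8298 and Gm9696, had at most 1 count in a library.

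RefSeq promoters (GRCm38.p6) were matched for 4 of the 5 genes, but not for Klhl24. The 250 bases before the start are shown because all 5 genes were lower with IL-2 at neutral and mildly acid pH and start regions can be compared. The windows of Coq8a and Bend4 lie inside the gene spans given above, downstream of the gene ends in GENCODE M21 from which transcription runs. Capitals mark a TATA box, TATAAA on either strand, or a CCAAT box, CCAAT on either strand. Both motifs were added to the search after the sequences had been read. The Tbx6 promoter is chr7:126781233-126781482 (plus strand), the Coq8a promoter shown is chr1:180196021-180196270 (minus strand), the Bend4 promoter is chr5:67427800-67428049 (minus strand) and the Gm5538 promoter is chr3:59729536-59729785 (plus strand).
Tbx6: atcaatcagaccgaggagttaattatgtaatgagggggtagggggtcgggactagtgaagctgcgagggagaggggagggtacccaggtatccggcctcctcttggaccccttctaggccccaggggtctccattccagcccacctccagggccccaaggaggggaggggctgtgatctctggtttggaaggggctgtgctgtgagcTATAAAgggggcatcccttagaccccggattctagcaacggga
Coq8a: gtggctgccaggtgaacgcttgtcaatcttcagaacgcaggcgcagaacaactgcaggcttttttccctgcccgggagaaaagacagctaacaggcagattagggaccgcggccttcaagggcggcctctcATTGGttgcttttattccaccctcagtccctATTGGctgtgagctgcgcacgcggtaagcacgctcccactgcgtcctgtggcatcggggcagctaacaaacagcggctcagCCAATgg
Bend4: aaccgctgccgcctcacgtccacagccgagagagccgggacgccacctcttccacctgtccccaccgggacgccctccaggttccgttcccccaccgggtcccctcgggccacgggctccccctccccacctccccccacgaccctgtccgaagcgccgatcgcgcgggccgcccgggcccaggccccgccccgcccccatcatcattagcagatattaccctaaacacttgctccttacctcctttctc
Gm5538: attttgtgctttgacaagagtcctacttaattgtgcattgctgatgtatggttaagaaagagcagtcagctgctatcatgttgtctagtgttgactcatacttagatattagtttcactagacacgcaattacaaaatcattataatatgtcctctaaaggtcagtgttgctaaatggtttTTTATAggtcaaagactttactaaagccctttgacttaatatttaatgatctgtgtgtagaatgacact

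The 4 promoters differed in composition, from 33.6% G and C bases in Gm5538 through 58.0% in Coq8a and 59.6% in Tbx6 to 70% in Bend4, against a median of 52.4% over 32851 RefSeq promoters cut to the same 250 bases. Tbx6 had TATAAA on its own strand, beginning 43 bases before the start, and Gm5538 had it on the other strand at 69 bases before the start. Of all promoters, 12.4% held this motif. Coq8a had 3 CCAAT boxes, at 119, 88 and 7 bases before the start, and 33.8% of all promoters held at least 1. A second annotated Coq8a start, with the promoter chr1:180193486-180193735, held none of the motifs searched. On either strand, no member promoter held an E-box of MYC and MAX (CACGTG, in 6.02% of all promoters), a forkhead site (GTAAACA, 3.17%), a STAT palindrome (TTCNNNGAA, 7.02%), a cAMP response element (TGACGTCA, 1.55%) or a T-box site (AGGTGTGA, 1.12%). Klhl24, with no matched promoter, was not searched. None of the motifs was common to all 4 genes, and a match or its absence in these windows says nothing about the binding of a factor.

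Between 16721319 and 34033340 reads fell on genes in each library, with a median of 24730020. Cd3e (374 to 631 counts per 1000000 reads on genes, CPM) and Cd8a (674 to 1600 CPM) were present in every library, while the B cell marker Ms4a1 and the erythroid marker Hbb-bs were at 0 in all 35. Over the 8 markers of CD8 T cells together, the summed level was 9600 to 12300 CPM at pH 7.4 with IL-2 and 3200 to 4530 CPM at pH 6.6 with IL-2, a list that contains the IL-2 responsive granzyme B and perforin genes. Over the 5 myeloid markers, the summed level stayed between 0.368 and 3.98 CPM in all groups. The median share of reads outside genes rose with acid with IL-2, from 4.33% at pH 7.4 to 5.13% at pH 7 and 7.86% at pH 6.6. Without IL-2 it fell with acid, from 9.43% at pH 7.4 to 8.72% at pH 7 and 7.68% at pH 6.6. At 0 h the share was 4.89%. With IL-2, the 2 NK cell markers summed to 43.0 to 45.8 CPM at pH 7.4 and 19.3 to 33.2 CPM at pH 6.6. The 3 dendritic cell markers summed to 25.1 to 56.6 and 18.7 to 32.3 CPM in these groups. Without IL-2, the NK cell sum was 20.6 to 40.8 CPM at pH 7.4 and 8.27 to 12.1 CPM at pH 6.6. The dendritic cell sum was 24 to 36.5 and 22.9 to 40.2 CPM there. At 0 h the NK cell sum was 83.4 to 95 CPM and the dendritic cell sum 56.9 to 140 CPM. The part of these shifts in the results on the 5 genes was not tested. In these bulk samples, a smaller fraction of cells expressing a gene and less of its RNA per cell cannot be told apart.

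The selection compared pH 6.6 with pH 7.4 in cells kept with IL-2, and the members rose there by 4.33 to 4.56 on the log2 scale, that is 20.1-fold to 23.6-fold. In order, the log2 fold changes were 4.56 for Gm5538, 4.51 for Tbx6, 4.45 for Coq8a, 4.42 for Klhl24 and 4.33 for Bend4. Just outside stood Ikzf2 (4.13), Bcl6 (4.12) and Tnfaip3 (3.83), out of 3126 genes that rose and whose mean log2 CPM was 3 or more. Tbx6 was close to that floor of expression, with a mean log2 CPM of 3.08. The floor was set on the mean of all 35 libraries. In the 10 libraries at pH 6.6 and pH 7.4 with IL-2 alone, the mean log2 CPM was 2.29 for Tbx6 and 2.07 for Gm5538, below 3, so these 2 genes were included through higher levels in other groups, and their differences between groups with IL-2, without IL-2 and at 0 h are given with no test. Coq8a (3.66), Klhl24 (6.16) and Bend4 (6.24) were above 3 in those 10 libraries. Another 40 genes had larger rises than Bend4 but lay below the floor. The choice itself put the 5 rises within a narrow range, and the remaining groups show how the genes differed.

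**Figure D1:**
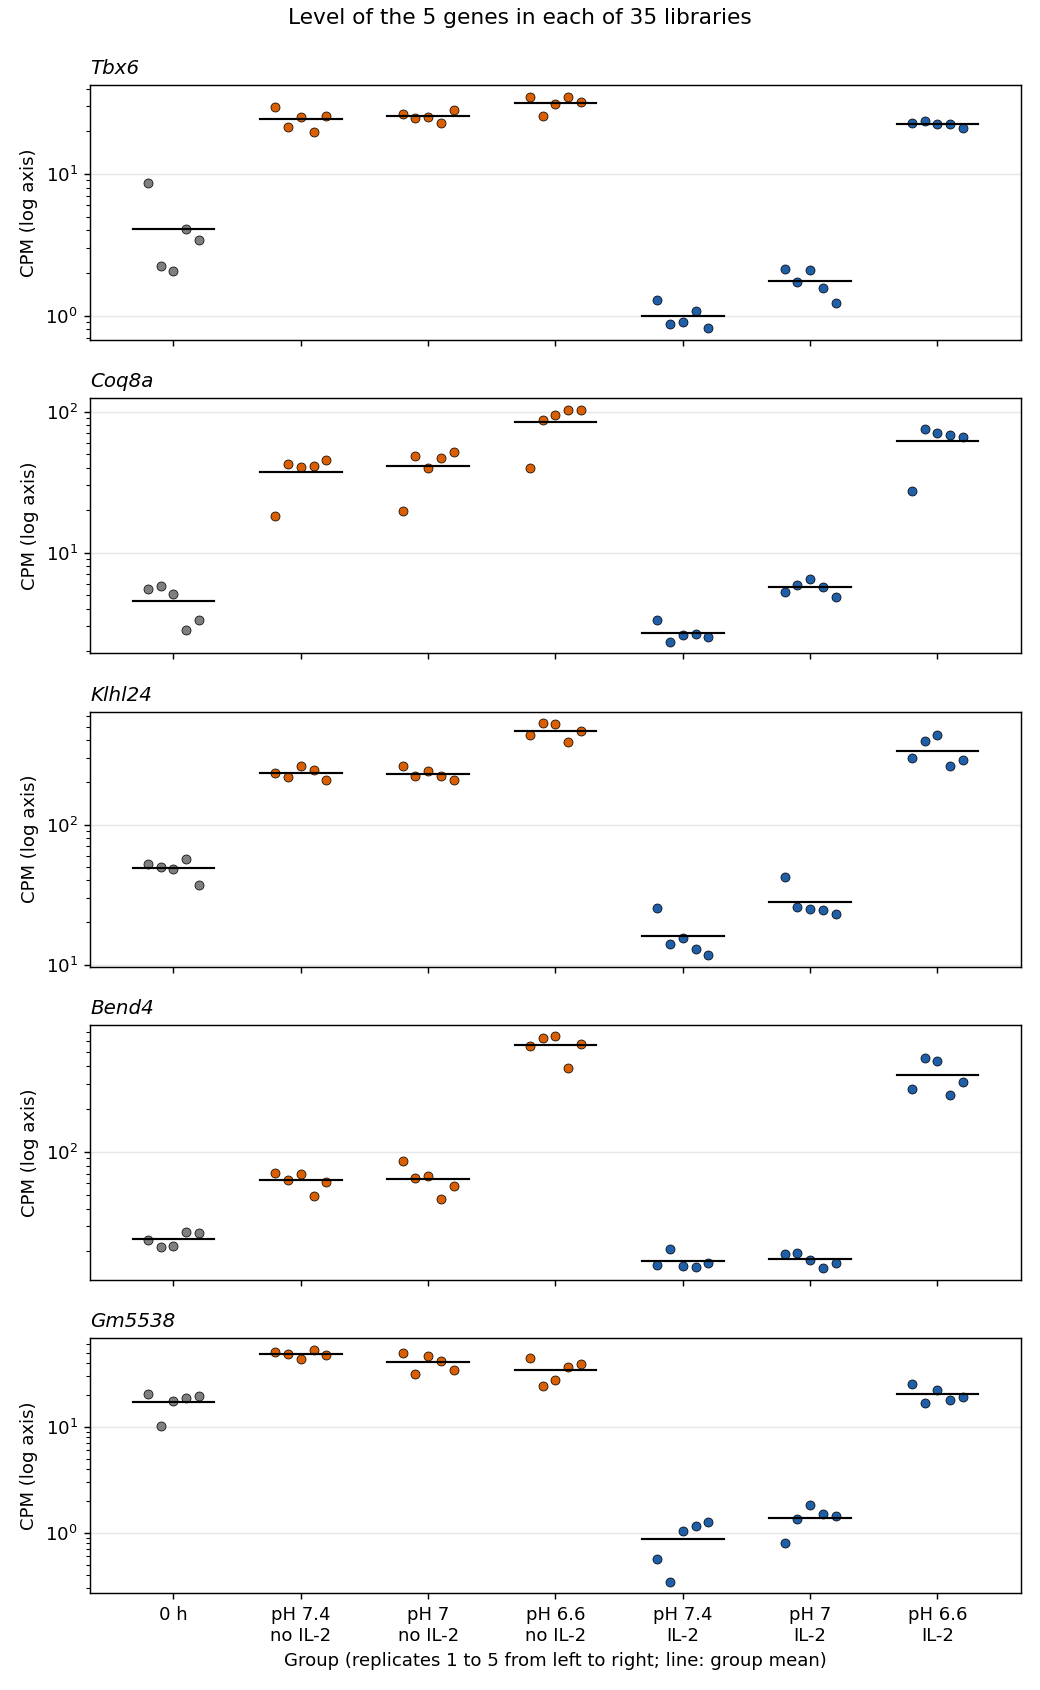
CPM (log axis) of each gene in each of the 35 libraries, by group, with the group mean as a line and replicates 1 to 5 from left to right. For all 5 genes, the libraries at pH 7.4 and pH 7 with IL-2 (blue) lie below every library at the same pH without IL-2 (orange), and those at pH 6.6 with IL-2 lie far above the other libraries with IL-2.

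Tbx6 was lowest in the libraries at pH 7.4 and pH 7 with IL-2. Replicates 1 to 5 held 1.30, 0.868, 0.903, 1.08 and 0.813 CPM at pH 7.4 with IL-2 and 2.15, 1.74, 2.10, 1.56 and 1.23 CPM at pH 7 with IL-2, from 18 to 57 reads a library. At pH 6.6 with IL-2 they held 22.8, 23.5, 22.4, 22.5 and 21 CPM, which is 22.4 ± 0.895 CPM (SD, n = 5) and the group with the least spread on the log2 scale (SD 0.06). That level lay among those without IL-2. There, the replicates had 29.7, 21.6, 25.2, 19.7 and 25.6 CPM at pH 7.4, 26.4, 24.8, 25.2, 23 and 28.2 CPM at pH 7, and 34.7, 25.6, 31.4, 35.2 and 32 CPM at pH 6.6. The 3 groups without IL-2 overlapped one another. Before culture Tbx6 ranged widely, with 8.65, 2.23, 2.06, 4.07 and 3.40 CPM, and all 0 h libraries lay below all libraries without IL-2.

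Coq8a had the same layout with a stronger step in acid. At pH 7.4 with IL-2 the replicates held 3.33, 2.33, 2.59, 2.65 and 2.53 CPM, at pH 7 with IL-2 5.29, 5.93, 6.52, 5.73 and 4.86 CPM, and at pH 6.6 with IL-2 27.2, 75.8, 70.4, 68.7 and 65.8 CPM. Without IL-2 they held 18.3, 42.2, 40.3, 41.3 and 45.2 CPM at pH 7.4, 19.6, 48.2, 40.1, 46.5 and 51.6 CPM at pH 7, and 40.1, 86.5, 93.9, 103 and 102 CPM at pH 6.6. Replicate 1 was the lowest of its group in all 4 of the groups where Coq8a was high, but not in the others, including 0 h (5.52, 5.79, 5.11, 2.81 and 3.32 CPM). The rise from pH 7.4 to pH 6.6 without IL-2 was between 1.03 and 1.32 on the log2 scale in all 5 pairs. With IL-2, it was 3 in replicate 1 and 4.66 to 4.98 in the other replicates.

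Klhl24 was low with IL-2 except in acid, and highest in acid without IL-2. Its replicates held 25.5, 14.1, 15.4, 13 and 11.7 CPM at pH 7.4 with IL-2, 42.4, 25.8, 24.9, 24.5 and 23 CPM at pH 7 with IL-2, and 297, 396, 439, 261 and 289 CPM at pH 6.6 with IL-2. Without IL-2, they held 235, 220, 263, 247 and 209 CPM at pH 7.4, 261, 222, 241, 221 and 209 CPM at pH 7, and 438, 530, 522, 391 and 464 CPM at pH 6.6. The 5 libraries at pH 6.6 without IL-2 lay above all those at the other pH values without IL-2. At 0 h, values of 52.1, 50, 48.5, 57.1 and 37.2 CPM lay between the neutral groups with and without IL-2, and overlapped the pH 7 group with IL-2 only through its replicate 1.

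Bend4 had nearly the same mean at pH 7.4 and at pH 7 with IL-2, and far higher values at pH 6.6. Its replicates held 16.1, 20.7, 15.9, 15.6 and 16.6 CPM at pH 7.4 with IL-2, 19.1, 19.6, 17.5, 15.2 and 16.6 CPM at pH 7 with IL-2, and 275, 458, 435, 252 and 308 CPM at pH 6.6 with IL-2. Without IL-2, they held 71.6, 63.9, 70.5, 49.3 and 61.1 CPM at pH 7.4, 86, 66, 68, 46.6 and 57.6 CPM at pH 7, and 559, 635, 649, 391 and 577 CPM at pH 6.6. Both pH 6.6 groups stood clear of all other groups, and 0 h (24.1, 21.4, 21.9, 27.5 and 26.7 CPM) stood clear of the neutral groups without IL-2.

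Gm5538 was the 1 gene whose level without IL-2 was not highest in acid. The replicates held 50.9, 48.6, 43.4, 53.2 and 47.2 CPM at pH 7.4 without IL-2, 49.1, 31.1, 46.1, 41.8 and 34.3 CPM at pH 7, and 44.2, 24.4, 27.8, 36.4 and 39.1 CPM at pH 6.6. With IL-2 they held 0.568, 0.347, 1.03, 1.16 and 1.26 CPM at pH 7.4, 0.795, 1.34, 1.84, 1.52 and 1.44 CPM at pH 7, and 25.5, 16.6, 22.3, 18 and 19.1 CPM at pH 6.6. The values at pH 7.4 with IL-2 rest on 10 to 28 reads a library. At 0 h the replicates held 20.3, 10.2, 17.4, 18.8 and 19.4 CPM, which overlapped pH 6.6 with IL-2 and lay above all libraries at pH 7.4 and pH 7 with IL-2.

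Per kilobase of exon (RPKM, on the linear scale), the order of the genes changed between conditions. At pH 7.4 without IL-2, Gm5538 had 39.4 RPKM, Klhl24 23, Tbx6 13.5, Coq8a 7.08 and Bend4 6.40. At pH 6.6 without IL-2, Bend4 came first with 56.8 RPKM, before Klhl24 (46.1), Gm5538 (27.8), Tbx6 (17.6) and Coq8a (16.1). With IL-2 at pH 7.4, all 5 lay between 0.507 RPKM for Coq8a and 1.72 RPKM for Bend4.

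Without IL-2, the question was how the genes responded to acid when the cytokine was absent. Of the 5 genes, 4 rose and 1 fell from pH 7.4 to pH 6.6, where 31.6% of all genes tested rose and 35.4% fell. Bend4, the BEN domain gene, rose by 3.14 on the log2 scale (SE 0.14, edgeR adjusted p = 1.37e-18), from 63.3 ± 8.96 to 562 ± 103 CPM (SD, n = 5), and only 56 of the 13819 genes rose more. Coq8a rose by 1.18 (SE 0.20, edgeR adjusted p = 8.27e-06), from 37.5 ± 10.9 to 85 ± 26 CPM. Klhl24 rose by 1.00 (SE 0.14, edgeR adjusted p = 1.71e-07), from 235 ± 21.5 to 469 ± 58.4 CPM. All 3 rose in 5 of 5 pairs of replicates.

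The other two were closer to no change. Tbx6 passed the threshold with a log2 fold change of 0.39 (SE 0.16, edgeR adjusted p = 0.0344), higher in 5 of 5 pairs, from 24.4 ± 3.90 to 31.8 ± 3.81 CPM. This call was lost when the replicates were not paired (adjusted p = 0.0871), with a filter of 1 count (adjusted p = 0.0852), in a fit of the 25 libraries alone (adjusted p = 0.0607), when only library totals were used for scaling (0.24 on the log2 scale, adjusted p = 0.204), and without replicate 2, 4 or 5 (adjusted p = 0.0618, 0.218 and 0.0578). Gm5538 fell by 0.53 on the log2 scale (SE 0.14, edgeR adjusted p = 0.00179), from 48.6 ± 3.71 to 34.4 ± 8.17 CPM, and was lower in 5 of 5 pairs. With IL-2, it was higher in acid in 5 of 5 pairs.

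The mild step from pH 7.4 to pH 7 without IL-2 changed none of the 5 genes past the threshold, where 1.68% of all genes were called in either direction. The log2 fold changes were 0.08 for Tbx6, 0.14 for Coq8a, -0.03 for Klhl24, 0.03 for Bend4 and -0.29 for Gm5538 (edgeR adjusted p from 0.628 to 0.995). At an unadjusted p under 0.05, edgeR also called 0 of the 5, and DESeq2 called 0 by its adjusted p. Gm5538 was the nearest to a change, with an unadjusted edgeR p of 0.0532.

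From pH 7 to pH 6.6 without IL-2, 3 of the 5 rose, against 30.9% of all genes. Bend4 rose by 3.11 (SE 0.14, edgeR adjusted p = 2.36e-18), Coq8a by 1.04 (SE 0.20, adjusted p = 4.55e-05) and Klhl24 by 1.03 (SE 0.14, adjusted p = 1.10e-07), all on the log2 scale. Tbx6 (0.31, edgeR adjusted p = 0.0914) and Gm5538 (-0.24, adjusted p = 0.138) did not pass. This comparison shares the libraries at pH 6.6 with the one against pH 7.4.

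**Figure D2:**
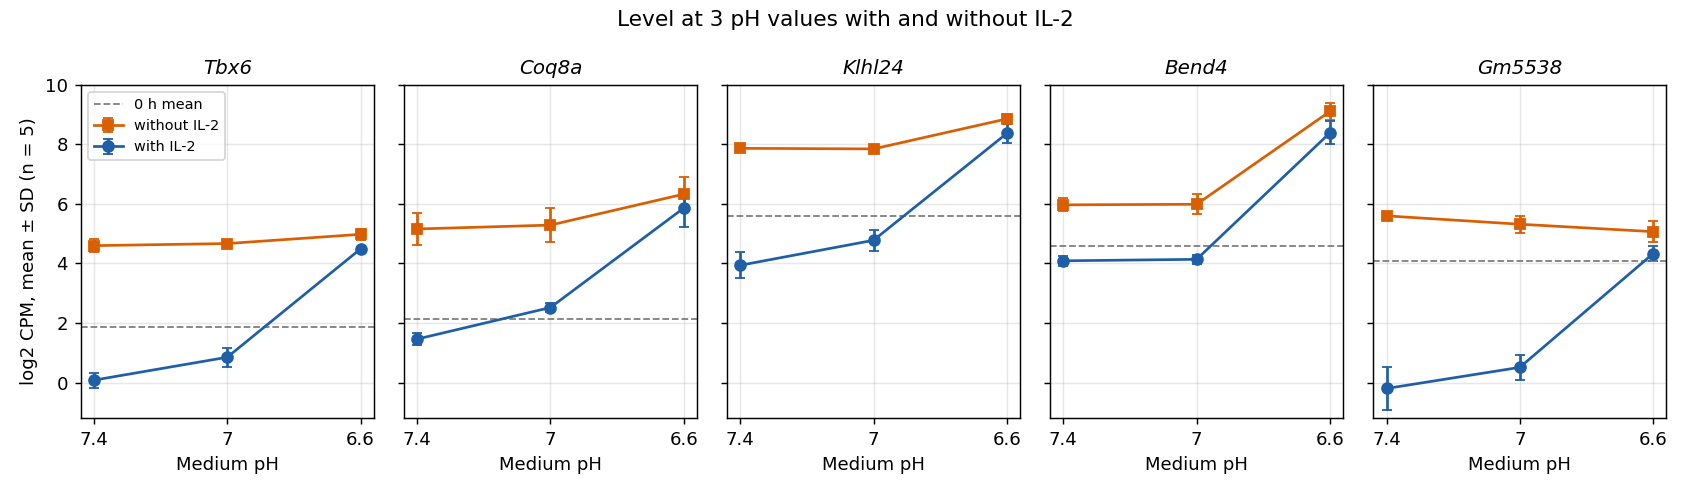
Mean log2 CPM ± SD (n = 5) of each gene at pH 7.4, 7 and 6.6, without IL-2 (orange squares) and with IL-2 (blue circles), with the 0 h mean as a dashed line. The gap between the lines is wide at pH 7.4 and pH 7 and narrow at pH 6.6 for all 5 genes, and the line without IL-2 climbs most for Bend4 and falls for Gm5538.

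All 5 genes were lower with IL-2 at pH 7. A high level without IL-2 had helped Tbx6 and Gm5538 to pass the floor of expression, so their values are descriptions. The share of all genes lower with IL-2 there was 39.5%, with 37.6% higher. Gm5538 was 28.6-fold lower with IL-2 (log2 fold change -4.84, SE 0.19), from 40.5 ± 7.64 to 1.39 ± 0.381 CPM, and 30 of the 13819 genes fell more. Tbx6 was 14.6-fold lower (-3.87, SE 0.20), from 25.5 ± 1.91 to 1.75 ± 0.384 CPM. By test, Klhl24 was 8.30-fold lower (edgeR adjusted p = 2.15e-18) and Coq8a 6.99-fold lower (adjusted p = 2.03e-12). Bend4 had the smallest difference, 3.65-fold (log2 fold change -1.87, SE 0.13, edgeR adjusted p = 2.63e-14). The direction was the same in 5 of 5 pairs for each gene.

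At pH 7.4 and at pH 6.6 the effect of IL-2 uses libraries of the selection and is given as values only. With IL-2 at pH 7.4, the log2 differences from cells without it were -5.84 for Gm5538, -4.61 for Tbx6, -3.91 for Klhl24, -3.74 for Coq8a and -1.89 for Bend4, in the same order as at pH 7. At pH 6.6 they were between -0.75 for Gm5538 and -0.47 for Coq8a. Cells at pH 6.6 with IL-2 may also be set beside cells at pH 7.4 without it: Tbx6 differed by -0.10, Klhl24 by 0.51, Coq8a by 0.71, Bend4 by 2.44 and Gm5538 by -1.28 on the log2 scale. These comparisons share libraries with each other and with the selection.

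Along the pH course with IL-2, pH 7 can be placed between the selected ends. The log2 differences from pH 7.4 to pH 7 were 1.07 for Coq8a, 0.83 for Tbx6, 0.83 for Klhl24 and 0.71 for Gm5538, each higher in 5 of 5 pairs, and 0.05 for Bend4, higher in 3 of 5. From pH 7 to pH 6.6 they were 4.28 for Bend4, 3.85 for Gm5538, 3.69 for Tbx6, 3.60 for Klhl24 and 3.38 for Coq8a. By these values, most of each rise lay in the step from pH 7 to pH 6.6.

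The 0 h cells give the starting level. After 24 h at pH 7.4 without IL-2, Coq8a, Klhl24 and Bend4 were called above 0 h, as were 36.9% of all genes. The log2 fold changes were 2.97 for Coq8a (SE 0.24, edgeR adjusted p = 1.38e-12), 2.26 for Klhl24 (SE 0.15, adjusted p = 3.07e-15) and 1.35 for Bend4 (SE 0.13, adjusted p = 5.94e-11). As descriptions, they were 2.62 for Tbx6 (SE 0.18) and 1.53 for Gm5538 (SE 0.15). At pH 6.6 without IL-2, Coq8a, Klhl24 and Bend4 were also called above 0 h, as were 34.8% of all genes. Bend4 came first at 22.6-fold (log2 fold change 4.50, edgeR adjusted p = 1.98e-22) and Coq8a next at 17.8-fold (4.15, adjusted p = 8.12e-16). As descriptions, Tbx6 and Gm5538 were also above 0 h there, Gm5538 with the smallest difference of the 5, 2-fold. These 2 comparisons share the 0 h libraries.

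With IL-2 kept at pH 7, Klhl24 and Bend4 were called below 0 h and Coq8a was not, where 27.7% of all genes were called lower. Gm5538 was 12.1-fold lower (log2 fold change -3.59) and Tbx6 2.24-fold lower (-1.16), both as descriptions. By test, Klhl24 was lower by 0.82 (edgeR adjusted p = 1.39e-05) and Bend4 by 0.49 (adjusted p = 0.00263) on the log2 scale. Coq8a did not pass the threshold (0.31, SE 0.25, edgeR adjusted p = 0.308), but without replicate 1, the replicate with low Coq8a in other groups, it was higher by 0.42 (adjusted p = 0.0233).

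**Figure D3:**
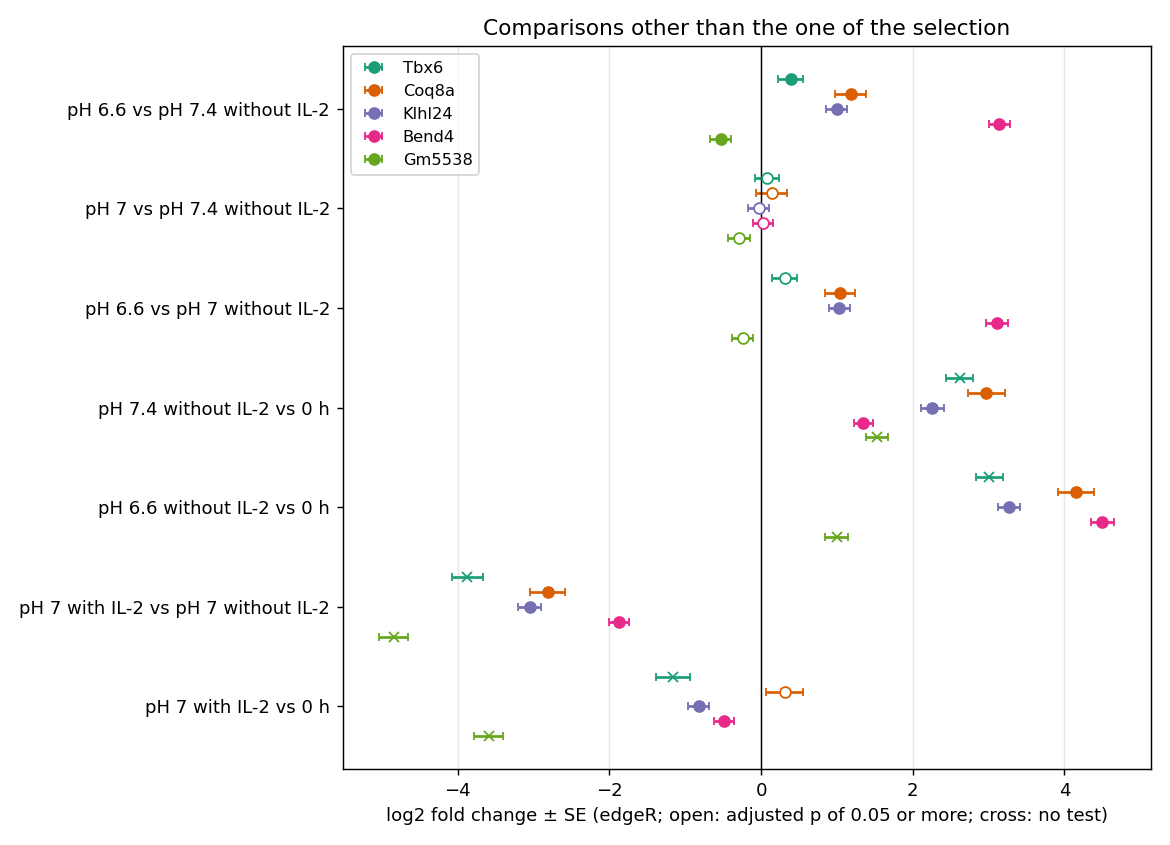
Log2 fold change ± SE of each gene in the 7 comparisons among the 25 libraries outside pH 6.6 and pH 7.4 with IL-2, where filled points passed an adjusted p of 0.05 in edgeR, open points did not, and crosses mark values of Tbx6 and Gm5538 given with no test. Bend4 is farthest right at pH 6.6 against pH 7.4 without IL-2 (3.14) and Gm5538 is left of 0 there (-0.53), while all 5 lie left of 0 in the comparison of IL-2 at pH 7.

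Each gene was then set beside the other genes of its family, in lists written from general knowledge. Among the 6 T-box genes tested, Tbx6 was the only one called higher in acid without IL-2 (pH 6.6 against pH 7.4), with the dependence on processing given above. Another 3 fell, where 31.6% of all genes rose and 35.4% fell. Tbx19 fell most (-1.54, edgeR adjusted p = 7.60e-06), from a low mean of 1.27 CPM to 0.433 CPM. The T cell factors of this family moved otherwise: Eomes fell by 0.29 (edgeR adjusted p = 0.00508), and Tbx21, which encodes T-bet, had a log2 fold change of 0.26 (adjusted p = 0.0714). With IL-2 at pH 7, 2 T-box genes were higher, Eomes by 1.96 (edgeR adjusted p = 5.09e-19) and Tbx21 by 1.44 (adjusted p = 4.58e-12). Tbx2, Tbx19 and Mga were called lower, where 37.6% of all genes were higher and 39.5% lower. Tbx6 had the largest difference of the family (log2 fold change -3.87), given as a description.

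The genes of coenzyme Q synthesis did not move as a group. All 13 were tested, and at pH 6.6 against pH 7.4 without IL-2, 5 were higher and 2 lower, with a median log2 fold change of 0.07 against -0.03 over all genes. Coq8a had the largest rise, and Coq4, which organizes the enzyme complex, had the largest fall (-1.92, edgeR adjusted p = 1.87e-11). Coq8b, the paralog of Coq8a, had a log2 fold change of -0.09 (edgeR adjusted p = 0.563). In the comparison of IL-2 at pH 7, 8 of the 13 were higher and 4 lower, against 37.6% and 39.5% of all genes. The median was 0.63 against -0.04, so that Coq8a (-2.81) lay opposite to most of its pathway. Coq8b was lower too (-0.95, edgeR adjusted p = 7.29e-08).

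Of the KLHL adaptors and the CUL3 parts, 29 were tested. At pH 6.6 against pH 7.4 without IL-2, 14 rose and 6 fell, with a median log2 fold change of 0.14, where 31.6% of all genes rose and 35.4% fell. Klhl30 rose most (1.37) and Klhl35 fell most (-2.36), with Klhl24 at 1.00. Klhl35 had few reads, with a mean of 0.579 CPM at pH 7.4 and 0.112 CPM at pH 6.6. With IL-2 at pH 7, 10 were higher and 13 lower, against 37.6% and 39.5% of all genes. Only Klhl3 (log2 fold change -3.32) fell more than Klhl24 (-3.05), from a low mean of 4.38 CPM without IL-2 to 0.437 CPM with it.

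The BEN domain genes went both ways. Of 8 tested, Bend4 (3.14), Banp (0.44, edgeR adjusted p = 0.00826) and Nacc1 (0.30, adjusted p = 0.00979) rose at pH 6.6 without IL-2. Bend3 (-1.33), Bend7 (-0.93, from a low mean of 0.889 CPM to 0.474 CPM) and Bend6 (-0.89) fell there. Of all genes, 31.6% rose and 35.4% fell. At pH 7, 2 of the 8 were higher with IL-2 and 4 were lower, against 37.6% and 39.5% of all genes. Of the arylacetamide deacetylase family only Gm5538 and Nceh1, a cholesterol ester hydrolase, passed the filter. Nceh1 fell by 0.95 at pH 6.6 without IL-2 (edgeR adjusted p = 2.48e-09) and by 0.36 with IL-2 at pH 7 (adjusted p = 0.00259), and Aadac, Aadacl2, Aadacl3 and Aadacl4 were at 0 counts in all 35 libraries.

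A list of 22 genes known as FoxO targets was added because IL-2 signalling acts on FoxO factors. It was written with earlier results of these data known. It includes Klhl24, Bcl6 and Fbxo32, at ranks 4, 7 and 11 in the order of the selection. Its counts are therefore a description, and FoxO activity was not tested. At pH 7, 22 of 22 were lower with IL-2, where 39.5% of all genes were lower. The median log2 fold change was -1.68 against -0.04 over all genes, and Il7r (-5.01), Bcl6 (-4.05) and Klhl24 (-3.05) fell most. At pH 6.6 against pH 7.4 without IL-2, the list split into 8 higher and 6 lower, with a median of 0.14. Of all genes, 31.6% rose and 35.4% fell there. Bcl2l11, which encodes the death protein BIM, rose most (1.23, edgeR adjusted p = 2.81e-10), and Il7r, the IL-7 receptor gene, fell most (-3.27, adjusted p = 1.60e-17). Klhl24 was on the rising side.

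**Figure D4:**
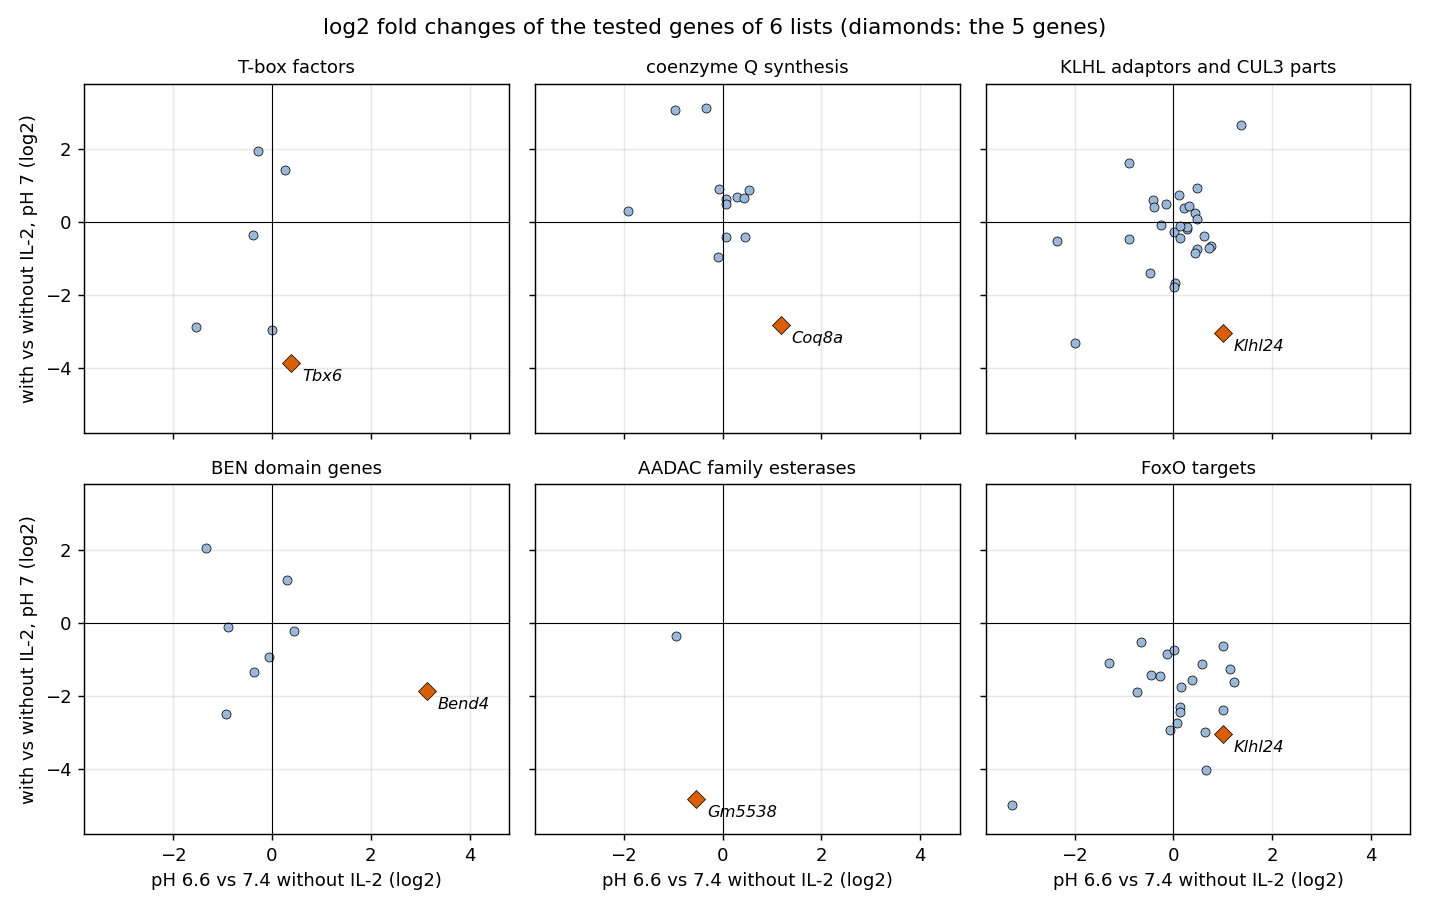
Log2 fold change at pH 6.6 against pH 7.4 without IL-2 (horizontal) and with against without IL-2 at pH 7 (vertical) for the tested genes of the 6 lists, with the 5 genes as diamonds. The members lie low on the vertical axis in every panel, while Coq8a stands apart from most genes of coenzyme Q synthesis and Bend4 is the BEN domain gene farthest to the right.

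The nearest tested genes on the chromosome moved in various directions. Ypel3 lies 969 bases from Tbx6 on the same strand and fell by 0.41 at pH 6.6 without IL-2 (edgeR adjusted p = 0.00261), and with IL-2 at pH 7 it was lower like Tbx6 (-2.61 on the log2 scale). On the other side of Tbx6, Ppp4c, a phosphatase gene 306 bases away, rose by 0.21 in acid (edgeR adjusted p = 0.0319) and was higher with IL-2 at pH 7 (0.91). Within 100 kb of Tbx6, 13 genes were tested, and 7 rose and 3 fell in acid without IL-2, where 31.6% of all genes rose and 35.4% fell. Cdc42bpa, a kinase gene that overlaps Coq8a on the other strand, had a log2 fold change of -0.11 in acid (edgeR adjusted p = 0.71) and was higher with IL-2 at pH 7 (1.19, adjusted p = 1.59e-05). Psen2, the nearest tested gene that does not overlap Coq8a, fell by 0.69 in acid, and Yeats2, nearest to Klhl24, fell by 0.51. Near Bend4, 3 of 4 tested genes rose in acid, against 31.6% of all genes. Slc30a9, a zinc transporter gene, rose by 1.46 and the overlapping Gm42632 and Gm26756 by 1.29 and 0.95 on the log2 scale. These last values are uncertain, because reads of Bend4 and of its overlapping genes may have been counted for either. Gm43698, the nearest tested gene that does not overlap Bend4, had a log2 fold change of 0.00 in acid without IL-2, and its level at pH 7 was 6.72 ± 1.36 CPM without IL-2 and 0.0625 ± 0.0393 CPM with IL-2 (SD, n = 5). Gm5709, the only tested gene within 100 kb of Gm5538, had one of -0.07.

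Over all 35 libraries, the genes with the most similar course of log2 CPM were found among 10659 candidates whose mean log2 CPM was 1 or more. For Tbx6 these were Gramd1a (Pearson r = 0.990), Thap3 (0.988) and Rapgef4 (0.987). For Coq8a they were Zmynd11 (0.980), Ddhd2 (0.978) and Madd (0.975), and for Klhl24 they were Fbxl20 (0.996), Hbp1 (0.992) and Crebrf (0.990). Bend4 was most like Trim24 (0.986), Chp1 (0.985) and Birc2 (0.984), and Gm5538 most like Mirt1 (0.967), Tmem71 (0.967) and Tcp11l2 (0.964). The libraries fall into groups with large differences, so these coefficients mostly describe the order of the 7 group means. The ranking also used the 10 libraries at pH 6.6 and pH 7.4 with IL-2, on which the members were selected. In the other 25 libraries, r of the named pairs lay between 0.953 (Gm5538 and Tcp11l2) and 0.993 (Klhl24 and Fbxl20). Between members in these 25 libraries, Pearson r ran from 0.582 for Bend4 and Gm5538 to 0.960 for Tbx6 and Klhl24. By Spearman rank correlation, the lowest value was 0.531 for Coq8a and Gm5538, and the highest 0.960 for Klhl24 and Bend4. High levels without IL-2, in these same libraries, had helped Tbx6 and Gm5538 to pass the floor of expression, so these values are descriptions.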

How the data were processed

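The 35 libraries of polyadenylated RNA from OT-I CTLs (7 groups, 5 biological replicates) were stranded. The authors deposited 1 table of raw read counts per gene and library, with no normalization. The submitters' processing notes name cutadapt 1.8, STAR 2.5.2b, HTSeq 0.6.1 and the build GRCm38. Settings, annotation and strand mode of the counting are not given in the sources used here. Each table ends in 5 lines without a gene, which were not used: reads outside genes were 2.58% to 11.1% and reads aligned to several places 32.8% to 48.3% of the reads in a table.

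Symbols were matched for 48349 of 48709 gene identifiers. In R 4.3.3, edgeR 4.0.16 kept 13819 genes (filterByExpr, minimum count 10), scaled libraries by TMM and fitted a robust quasi-likelihood model to all 35 libraries, with group terms and a block for the replicate number (biological coefficient of variation 0.12). The threshold was a Benjamini-Hochberg adjusted p of 0.05 over all genes tested. CPM are counts per 1000000 of the TMM-scaled total, log2 CPM use a prior count of 2, and RPKM divide CPM by exon length in kb. Limma 3.58.1 and DESeq2 1.42.0 were also loaded, the second as an alternative test.

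The block was used because the statistics of the study are paired. After subtraction of the group means, libraries of the same number correlated over 0.1 in 95 of 105 pairs (median r 0.273, against -0.0745 for 420 other pairs), and in 5 of 5 pairs for each comparison of pH without IL-2. Against 0 h this held in 3 or 4 of 5 pairs, and for IL-2 at pH 7 in 4 of 5. No 2 libraries of a group agreed within sampling noise (70 pairs, lowest chi-square per degree of freedom 6.17). On simulated counts for pH 6.6 against pH 7.4 without IL-2 (13367 genes), the model recovered 86 of 98 genes changed by 1 and 100 of 102 changed by 2 on the log2 scale, with 5 false calls. The simulation gave every gene the same variation (0.12), no replicate effect and only 200 changed genes. In the data, 9258 of 13819 genes were called in this comparison, so these rates do not carry over to the real counts.

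The members, the family lists and the FoxO list were chosen with earlier results of these data known. The genes named were the 5 members, the next 3 in the order of the selection, the 3 most similar genes for each member, the largest rise and fall in each list at pH 6.6 against pH 7.4 without IL-2 with any paralog of the same name root, and the nearest tested neighbours. Other genes named from the lists and overlapping genes were chosen after their values were seen. Alternatives were RLE scaling, library totals, DESeq2, 2 other filters, smaller sets of libraries, no replicate block and leaving out each replicate. Comparisons of pH 6.6 with IL-2 against pH 7.4 and pH 7 without IL-2 were added after seeing the data.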

Additional observations from a re-analysis of the deposited data

Results flagged for a closer look

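A sample far from the rest of its group was looked for in 35 groups of 5 libraries, 7 for each gene, with Dixon's test on log2 CPM. It marked 8 of them, and chance alone marks about 1 in 20 groups. For Coq8a, replicate 1 was far below the others in the 4 groups with high levels: 4.20 at pH 7.4 without IL-2 (next library 5.34), 4.30 at pH 7 without IL-2 (5.33), 5.33 at pH 6.6 without IL-2 (6.44), and with IL-2 at that pH 4.77 (6.04). These 4 libraries share a replicate number, so they are not 4 separate events.

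For Klhl24, replicate 1 at pH 7 with IL-2 was high, at 5.41 against 4.69 for the next library. For Bend4, replicate 4 at pH 6.6 without IL-2 was low (8.61, next 9.13), and in medium of pH 7.4 with IL-2 replicate 2 was high (4.38, next 4.06). For Gm5538, replicate 2 at 0 h was low (3.36, next 4.12).

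Gm5538 moved in opposite directions in acid with and without IL-2. Its log2 fold change from pH 7.4 to pH 6.6 was -0.53 without IL-2, lower in 5 of 5 pairs, and 4.56 with IL-2, higher in 5 of 5 pairs. The second value is the one the gene was selected on, and the difference was not tested.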

How the results depend on the processing

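Of 455 values of tested comparisons recomputed under the alternatives, 441 kept their direction and their side of the threshold, 7 lost a call, 5 gained one and 2 changed sign. All 600 recomputed descriptions moved by less than the spread between replicates. Their direction changed once: Bend4 at pH 7 against pH 7.4 with IL-2 was between -0.01 and 0.08 when 1 replicate was left out, below 0 without replicate 1. The 7 lost calls were all of Tbx6 at pH 6.6 against pH 7.4 without IL-2, whose log2 fold change was 0.24 with library totals only, 0.38 with a filter of 1 count, 0.39 in the 25 libraries alone and 0.28 to 0.41 when replicate 2, 4 or 5 was left out. The 2 changes of sign were in values near 0 at pH 7 against pH 7.4 without IL-2: Klhl24 was between -0.07 and 0.01 and Bend4 between -0.04 and 0.05 when 1 replicate was left out, with the sign changed without replicate 4 and replicate 1 respectively.

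Between pH 6.6 and pH 7 without IL-2, 5 of the 5 genes were called (4 higher, 1 lower) when only the groups compared were fitted, against 3 in the fit of all 35 libraries. Tbx6 (0.31, adjusted p = 0.00392 in edgeR) and Gm5538 (-0.25, adjusted p = 0.0455) were the additional ones, and Tbx6 also passed with RLE scaling (0.36, adjusted p = 0.0487) and Gm5538 with library totals (-0.41, adjusted p = 0.0155). Without replicate 1, Coq8a at pH 7 with IL-2 passed against 0 h (0.42). The causes were not tested.

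Without the replicate block, Tbx6 at pH 6.6 against pH 7.4 without IL-2 had a log2 fold change of 0.38 and an adjusted p of 0.0871 in edgeR, and no other call on the 5 genes changed. The pairing mattered for the count over all genes at pH 7 against pH 7.4 without IL-2: 232 genes were called with the block and 56 without it, 942 when only those groups were fitted, and 35 to 332 when 1 replicate was left out, with the fewest without replicate 2.

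Depth limits Gm5538 and Tbx6 most, since their libraries at pH 7.4 with IL-2 hold 10 to 28 and 18 to 32 reads. The SD values cover the spread between the 5 replicates of a group, while each SE comes from the model of all 35 libraries. For Coq8a at pH 6.6 against pH 7.4 without IL-2, the SE was 0.20 in that model. It was 0.07 when only those groups were fitted. Neither measure reaches beyond these 5 replicates.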
